A study of Homo sapiens with 8 samples.

Results

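Messenger RNA of 32 genes for glucose uptake, glycolysis, glycogen turnover and the pentose phosphate pathway was compared between OGD-R and Control cells. The genes were chosen by name, as all rows whose symbol is one of the 32, and they are 32 of 24252 genes in each table. All 32 symbols were found, none more than once, and 31 had a mean of at least 1 FPKM and were tested. By branch, 2 are glucose transporters, 17 are enzymes of glycolysis down to lactate, 7 belong to glycogen turnover and 6 to the pentose phosphate pathway. FPKM, the unit of all levels, is the number of sequenced fragments scaled to transcript length and to the library's total.

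The cells were HaCaT, an immortalised line of human skin keratinocytes, sequenced as 8 libraries. The 4 Control libraries carry no treatment label, and the 4 OGD-R libraries are labelled as treated with OGD/R, an abbreviation used for oxygen and glucose deprivation followed by reoxygenation, and were taken at a stage described as early. How long deprivation and recovery lasted is not stated in the labels. Nor do they say whether libraries of a group came from separate cultures; the p-values below reflect only how far these libraries scatter, and that scatter may be technical.

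Glucose enters a keratinocyte through facilitative transporters of the SLC2A family and is trapped inside by hexokinase. Glycolysis splits it into pyruvate and yields ATP without oxygen. Lactate dehydrogenase turns pyruvate into lactate and restores the NAD+ that glycolysis consumes. Glucose 6-phosphate can instead be stored as glycogen, or enter the pentose phosphate pathway, which supplies NADPH and ribose 5-phosphate for nucleotides. Many of these genes are known targets of hypoxia-inducible factor, which binds the letters ACGTG or GCGTG, and epidermal keratinocytes are known for a high rate of lactate production.

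Stretches before the start sites of 5 members are printed because they show what these letters look like in genes that differed in their pattern: HK2, PFKP and PYGB were below all Controls in OGD-R, and PGK1 and PGD lay between the Controls. Capitals mark ACGTG and likewise GCGTG, on either strand. The stretches come from RefSeq on GRCh38.p14, run 5′ to 3′ on the plus strand, leave out bases inside annotated exons, and were chosen after their matches were seen. Some windows of members with each pattern, among them most windows of HK1 and the only windows of PGLS and PKM, held no match. The PYGB stretch lies ahead of the gene, and the other 4 lie between annotated exons inside the gene as GENCODE 29 draws it, ahead of a RefSeq start site.
HK2, chr2:74834920-74835169: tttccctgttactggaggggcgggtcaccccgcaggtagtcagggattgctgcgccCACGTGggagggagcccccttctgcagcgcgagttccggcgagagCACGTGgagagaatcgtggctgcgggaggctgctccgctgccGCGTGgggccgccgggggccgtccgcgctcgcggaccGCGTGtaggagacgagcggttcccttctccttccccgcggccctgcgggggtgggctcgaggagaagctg
PFKP, chr10:3068939-3069188: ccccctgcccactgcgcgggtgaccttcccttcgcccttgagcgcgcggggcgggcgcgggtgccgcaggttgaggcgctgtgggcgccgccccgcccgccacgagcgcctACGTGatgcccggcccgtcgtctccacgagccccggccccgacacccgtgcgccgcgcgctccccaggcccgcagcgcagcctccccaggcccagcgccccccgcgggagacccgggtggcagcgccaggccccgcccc
PYGB, chr20:25247835-25248068: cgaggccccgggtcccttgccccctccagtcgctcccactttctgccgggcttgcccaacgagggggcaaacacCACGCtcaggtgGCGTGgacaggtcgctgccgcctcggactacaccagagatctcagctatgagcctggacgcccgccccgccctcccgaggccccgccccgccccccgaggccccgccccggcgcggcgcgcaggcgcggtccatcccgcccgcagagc
PGK1, chrX:78103998-78104173: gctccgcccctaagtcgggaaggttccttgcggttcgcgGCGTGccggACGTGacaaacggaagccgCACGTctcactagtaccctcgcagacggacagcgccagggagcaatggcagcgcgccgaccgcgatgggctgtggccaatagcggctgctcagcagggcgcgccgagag
PGD, chr1:10398814-10399043: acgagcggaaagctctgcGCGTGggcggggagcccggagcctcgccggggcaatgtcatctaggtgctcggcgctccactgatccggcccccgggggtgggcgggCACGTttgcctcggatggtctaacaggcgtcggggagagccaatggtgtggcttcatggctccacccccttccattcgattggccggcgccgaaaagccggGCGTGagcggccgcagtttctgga
The HK2 stretch held 6 matches, some of them the forward and reverse match of one CACGTG, those of PGK1 and PGD 3 each, that of PYGB 2 and that of PFKP 1.

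RefSeq windows existed for 31 members, SLC2A3 excepted, 54 windows in all, and the 250 bases before each start were searched on both strands. Some genes, such as HK1 and PFKM, have several windows that partly overlap, so the shares below are of windows and not of genes. The members' windows include that of ENO2, whose mean was too low for the test. ACGTG was in 35.2% of the members' windows, against 22.7% of the 12915 windows of genes tested and 18.5% of all 35116 windows. GCGTG was in 35.2% of the members' windows, against 44.3% and 32.2%. CACGTG, which contains ACGTG on either strand, was in 11.1%, against 8.38% and 6.34%. A match is a description of the letters in the window and was not set against any binding data.

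The Control libraries fell in 2 places, and this touches most of the members. Across all genes tested, log2 values correlated at 0.992 between Control 1 and Control 2 and at 0.991 between Control 3 and Control 4, but between 0.874 and 0.881 across the pairs of Controls. The OGD-R libraries correlated between 0.940 and 0.947 with Controls 1 and 2, and between 0.879 and 0.887 with Controls 3 and 4. A panel of 10 proliferation markers summed to 797 and 817 FPKM in Controls 1 and 2, to 78.1 and 74.9 FPKM in Controls 3 and 4, and to between 714 and 780 FPKM in OGD-R. All 10 keratinocyte markers reached 1 FPKM in every library, and 1 of 7 fibroblast, 1 of 5 melanocyte and 1 of 5 immune cell markers reached it in any library. These were COL1A1 (0.860 to 8.69 FPKM in Control, 3.45 to 4.20 FPKM in OGD-R), MITF (0.830 to 1.17 and 1.64 to 2.04 FPKM) and CD68 (12.3 to 16.7 and 2.94 to 3.74 FPKM). Summed FPKM of the fibroblast list was 0.910 to 8.72 in Control and 3.85 to 5.08 in OGD-R, of the melanocyte list 1.18 to 1.60 and 2.29 to 2.59, and of the immune list 12.4 to 16.9 and 3.32 to 3.99. The keratinocyte list summed to 13610 and 12580 FPKM in Controls 1 and 2 and to 20760 and 19730 FPKM in Controls 3 and 4. In OGD-R it summed to between 15880 and 16790 FPKM. The fibroblast marker COL1A2 and the melanocyte marker TYR were at 0 in every library. The share of mitochondrially encoded genes in the summed FPKM was 17.5% to 21.9% in Control and 26.6% to 29.1% in OGD-R. The part of these markers in the results that follow was not tested. For the mitochondrial share, results with mitochondrially encoded genes left out of the totals are given below, and its part was not tested otherwise.

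Against all 4 Controls, 1 member rose and 5 fell in OGD-R. ALDOC rose, and SLC2A3, HK2, PFKP, PYGB and PGLS fell, at a Benjamini-Hochberg adjusted p of 0.05 over all 11740 genes tested with limma on log2(FPKM + 1). In bulk RNA, fewer cells that express a gene and less of its RNA per cell cannot be told apart. Of all genes tested 10.2% rose and 9.69% fell. The members' median log2 fold change was -0.02, beside 0.02 over all genes tested. With totals rescaled to leave out mitochondrially encoded genes, 1589 genes rose and 870 fell, beside 1202 and 1138 without rescaling; 2 members then rose and 4 fell.

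Positions of the libraries, given with no test, separated more members. The 4 OGD-R libraries lay wholly below all 4 Controls for 6 of the 31 members, against 14.8% of all genes tested, and these were the 5 that fell and HK1. They lay wholly above all 4 Controls for 3 members, ALDOC, UGP2 and PYGL, against 15.2% of genes. For 15 members they lay below Controls 1 and 2 and above Controls 3 and 4, against 13.6% of genes. No member showed the opposite order, above Controls 1 and 2 and below Controls 3 and 4, which 6.79% of genes did. The other 7 members overlapped one or both pairs.

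**Figure D1:**
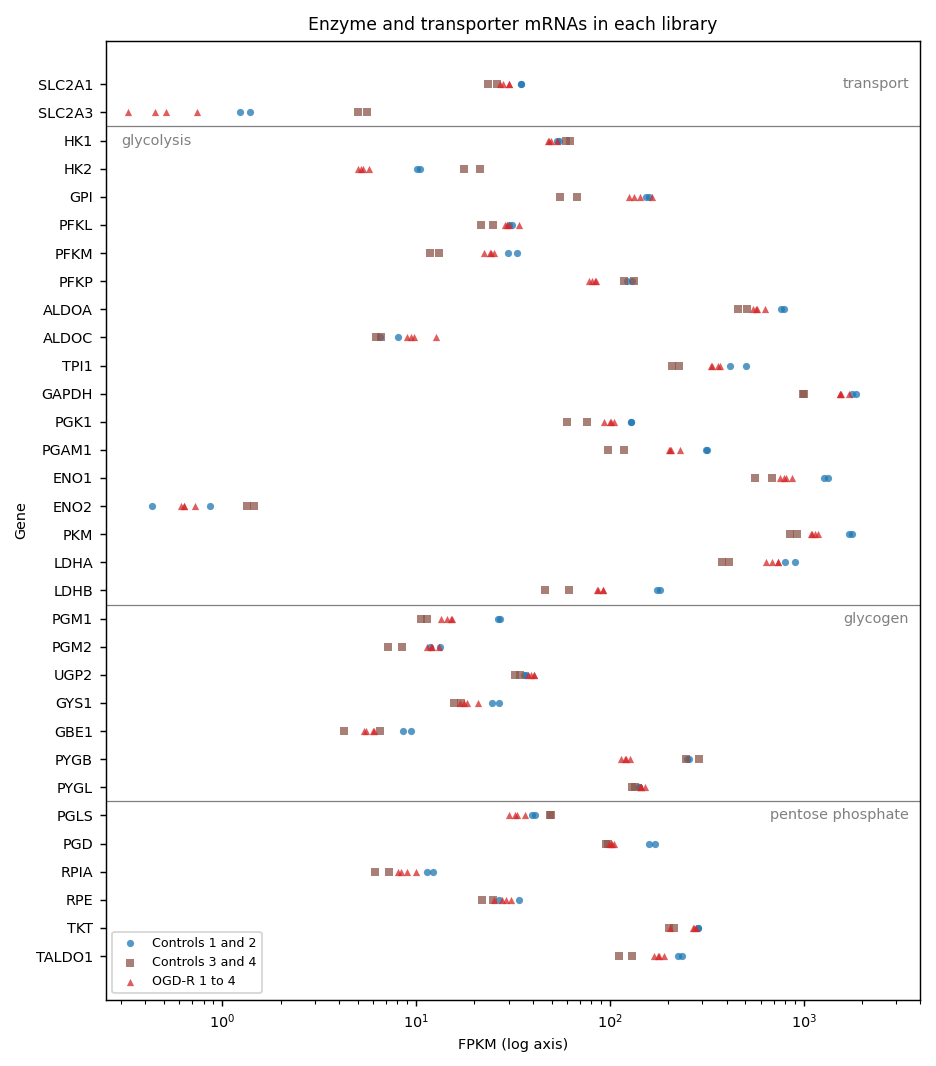
FPKM on a log axis of the 32 transporters and enzymes, ordered by step, with 1 point per library: circles, Controls 1 and 2; squares, Controls 3 and 4; triangles, OGD-R. For 15 of the 31 tested genes, among them GAPDH, PKM and LDHB, the triangles lie between circles and squares, and for HK2, PFKP and PYGB they lie left of all Controls.

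Of the glucose transporters among the members, SLC2A1 (GLUT1), the basal transporter of keratinocytes, was the higher at the RNA level in every library. In Controls 1 to 4 SLC2A1 was at 34.9, 34.8, 26.03 and 23.4 FPKM, and in OGD-R 1 to 4 at 30.3, 27.04, 30.2 and 28.1 FPKM. The OGD-R libraries lay between the pairs of Controls, and the log2 fold change was -0.02 (SE 0.144; adjusted p = 0.924). SLC2A3 (GLUT3), a transporter with a high affinity for glucose (chromosome 12, 7919230 to 7936275, minus strand, GENCODE 29 on GRCh38), was at 1.23, 1.39, 5.58 and 4.999 FPKM in the Controls and at 0.514, 0.326, 0.449 and 0.737 FPKM in OGD-R. Every OGD-R library was below every Control, with Controls 3 and 4 highest. SLC2A3 fell by 1.35 on the log2(FPKM + 1) scale (SE 0.373; adjusted p = 0.0382), with log2 fold changes of -0.62 against Controls 1 and 2 (adjusted p = 0.00249) and -2.07 against Controls 3 and 4 (adjusted p = 5.75e-07). The call was lost without Control 3, without Control 4 or without any single OGD-R library, with adjusted p up to 0.103, and with no filter on low values (adjusted p = 0.0601). SLC2A3 has a near-identical copy, SLC2A14, so its reads are uncertain.

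Of the hexokinases HK2 fell and HK1 did not pass the test. HK2, the hexokinase known to respond to growth signals and hypoxia (chromosome 2, 74833981 to 74893359, plus strand), was at 10.1, 10.4, 21.3 and 17.7 FPKM in the Controls and at 5.17, 5.31, 5.003 and 5.70 FPKM in OGD-R. The groups did not overlap, and the 4 OGD-R libraries lay within 1 FPKM of each other. HK2 fell by 1.27 (SE 0.229; adjusted p = 0.00722), with log2 fold changes of -0.84 against Controls 1 and 2 and -1.70 against Controls 3 and 4, and kept its call with any single library left out (adjusted p up to 0.0295). HK1, the form found in most tissues, was at 54.4, 53.4, 62.4 and 59.4 FPKM in the Controls and at 53.1, 49.5, 47.8 and 48.7 FPKM in OGD-R. OGD-R 1 was just below Control 2, and the log2 fold change of -0.20 (SE 0.0857) did not pass the test (adjusted p = 0.139). HK2 made up 15.6%, 16.3%, 25.4% and 22.99% of the summed HK1 and HK2 FPKM in Controls 1 to 4 and between 8.88% and 10.5% in OGD-R.

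GPI, which turns glucose 6-phosphate into fructose 6-phosphate, was at 159, 154, 67.3 and 55.3 FPKM in the Controls and at 165, 142, 126 and 133 FPKM in OGD-R. OGD-R was near Controls 1 and 2 and above Controls 3 and 4. The log2 fold change was 0.52 (adjusted p = 0.335) against all Controls, -0.16 (adjusted p = 0.205) against Controls 1 and 2, and 1.19 (adjusted p = 1.52e-05) against Controls 3 and 4.

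Phosphofructokinase, the committed step of glycolysis, has a platelet (PFKP), a liver (PFKL) and a muscle (PFKM) isoform. PFKP (chromosome 10, 3066333 to 3137712, plus strand) was the highest of these in every library, at 130.1, 123, 133 and 118 FPKM in the Controls and 84.6, 83.4, 78.3 and 80.5 FPKM in OGD-R. The pairs of Controls overlapped for PFKP, and every OGD-R library was below them. PFKP fell by 0.62 (SE 0.0778; adjusted p = 0.00142), with log2 fold changes of -0.62 against Controls 1 and 2 and -0.61 against Controls 3 and 4. PFKM was at 29.7, 33.1, 13.1 and 11.8 FPKM in the Controls and 24.1, 24.2, 22.4 and 25.1 FPKM in OGD-R, between the pairs. PFKL was at 31.2, 30.3, 25.04 and 21.7 FPKM in the Controls and 33.95, 29.4, 30.2 and 28.8 FPKM in OGD-R, overlapping Controls 1 and 2. Neither passed the test against all Controls (adjusted p = 0.610 and 0.363). Summed FPKM of the 3 isoforms was 191, 186, 171 and 151 in the Controls and between 131 and 143 in OGD-R. PFKP was 68.1%, 66.0%, 77.7% and 77.9% of that sum in the Controls and between 59.3% and 60.9% in OGD-R, while PFKL was between 14.4% and 16.4% in Control and between 21.4% and 23.8% in OGD-R.

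Aldolase, which splits fructose 1,6-bisphosphate, was nearly all ALDOA. ALDOA was at 795, 760.1, 510.3 and 459 FPKM in the Controls and 635, 565, 571 and 549 FPKM in OGD-R, between the pairs (log2 fold change -0.08, adjusted p = 0.789). ALDOC, the isoform best known from brain (chromosome 17, 28573115 to 28577264, minus strand), was at 6.54, 8.09, 6.61 and 6.23 FPKM in the Controls and 12.7, 9.70, 9.45 and 8.97 FPKM in OGD-R, so that every OGD-R library was above every Control. ALDOC rose by 0.50 (SE 0.127; adjusted p = 0.0272), with log2 fold changes of 0.42 against Controls 1 and 2 and 0.58 against Controls 3 and 4. Its call was lost without Control 3, Control 4, OGD-R 1, OGD-R 2 or OGD-R 3 (adjusted p up to 0.0685). ALDOC was between 0.817% and 1.34% of aldolase FPKM in Control and between 1.61% and 1.96% in OGD-R.

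The later steps of glycolysis, from triose phosphates to pyruvate, showed 1 order of libraries in all members but ENO2. TPI1, which interconverts the triose phosphates, was at 505, 418, 228 and 208 FPKM in the Controls and 333, 359, 336 and 368 FPKM in OGD-R. GAPDH, which makes 1,3-bisphosphoglycerate and is often used as a reference gene, was at 1871, 1777, 993 and 999 FPKM in the Controls and 1713, 1557, 1540 and 1539 FPKM in OGD-R. For both, OGD-R lay between the pairs of Controls. PGK1, which makes the first ATP of these steps, was at 129, 129, 76.3 and 59.9 FPKM in the Controls and 105, 102, 92.9 and 99.5 FPKM in OGD-R. PGAM1, the phosphoglycerate mutase, was at 317, 314, 118 and 98.2 FPKM in the Controls and 230.3, 207, 205 and 202 FPKM in OGD-R. The same order held, with the pairs of Controls further apart for PGAM1 than for PGK1. ENO1, the main enolase, was at 1336, 1272, 686 and 561 FPKM in the Controls and 866, 809, 757 and 796 FPKM in OGD-R. PKM, pyruvate kinase, was at 1770, 1711, 928 and 854 FPKM in the Controls and 1191, 1105, 1088 and 1137 FPKM in OGD-R. Both were nearer to Controls 3 and 4 than to Controls 1 and 2. ENO2, the neuronal enolase, was between 0.433 and 1.45 FPKM in Control and between 0.612 and 0.722 FPKM in OGD-R, and its mean was too low for the test. Its Controls 1 and 2 were below Controls 3 and 4.

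No gene from TPI1 to PKM passed the test against all Controls. Log2 fold changes were 0.14 for TPI1 (adjusted p = 0.758), 0.23 for GAPDH (adjusted p = 0.504), 0.09 for PGK1 (adjusted p = 0.819), 0.19 for PGAM1 (adjusted p = 0.767), -0.16 for ENO1 (adjusted p = 0.724) and -0.14 for PKM (adjusted p = 0.727). Their intervals were wide: that of PGAM1 ran from -0.71 to 1.09. Against Controls 1 and 2 all 6 fell, with log2 fold changes from -0.69 (ENO1, adjusted p = 3.97e-05) to -0.20 (GAPDH, adjusted p = 0.0329). Against Controls 3 and 4 all 6 rose, from 0.34 (PKM, adjusted p = 0.00271) to 0.96 (PGAM1, adjusted p = 1.20e-05). The pairs of Controls were taken from how these same libraries fell and are not in the labels. OGD-R lay between the pairs for all 6 genes, so opposite signs against the 2 pairs follow from that order. The fits share the OGD-R libraries, and each rests on 2 Controls, so their p-values give no separate support.

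Lactate dehydrogenase, which closes fermentation, has the subunits LDHA and LDHB. LDHA, the subunit favoured in fermenting tissue, was at 799.7, 898, 380 and 411 FPKM in the Controls and 641, 737, 740.2 and 685 FPKM in OGD-R. LDHB was at 176, 182, 61.2 and 46.1 FPKM in the Controls and 87.1, 92.6, 85.8 and 92.5 FPKM in OGD-R. Both lay between the pairs, LDHA nearer to Controls 1 and 2. LDHA had a log2 fold change of 0.27 (adjusted p = 0.536) against all Controls, -0.28 against Controls 1 and 2 and 0.82 against Controls 3 and 4. LDHB had -0.13 (adjusted p = 0.866), -0.99 and 0.74. LDHA was 82.0%, 83.1%, 86.1% and 89.9% of both subunits in the Controls and between 88.0% and 89.6% in OGD-R, so the groups overlapped.

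**Figure D2:**
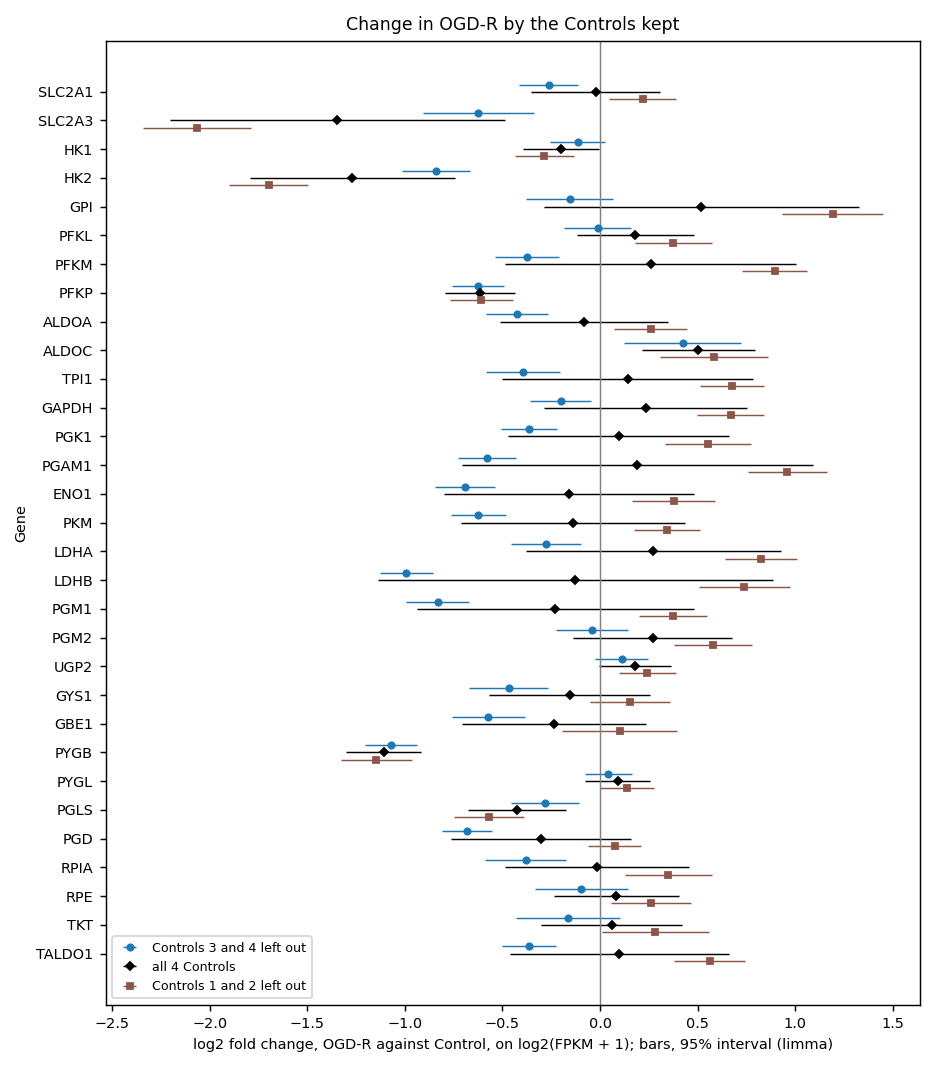
Log2 fold changes of the 31 tested genes on log2(FPKM + 1), with 95% intervals from limma: diamonds, against all 4 Controls; circles, with Controls 3 and 4 left out; squares, with Controls 1 and 2 left out. HK2, PFKP and PYGB lie left of 0 in each of the 3 fits, ALDOC lies right of 0, and most glycolysis genes lie left of 0 against Controls 1 and 2 and right of 0 against Controls 3 and 4.

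Glycogen turnover starts with phosphoglucomutase, which links glucose 6-phosphate and glucose 1-phosphate. PGM1 was at 26.9, 26.6, 11.4 and 10.7 FPKM in the Controls and 15.3, 15.2, 13.5 and 14.5 FPKM in OGD-R, between the pairs. PGM2, a relative that also acts on pentose phosphates, was at 11.8, 13.3, 8.50 and 7.14 FPKM in the Controls and 12.01, 13.2, 11.4 and 11.99 FPKM in OGD-R, overlapping Controls 1 and 2. PGM1 was 69.6%, 66.6%, 57.3% and 59.9% of their sum in the Controls and between 53.5% and 56.0% in OGD-R, below all Controls. UGP2, which makes UDP-glucose, was at 35.9, 37.0, 34.2 and 32.2 FPKM in the Controls and 38.96, 40.5, 37.7 and 40.7 FPKM in OGD-R. Every OGD-R library was above every Control, but UGP2 did not pass the test (log2 fold change 0.18, SE 0.0802, adjusted p = 0.161). With totals rescaled without mitochondrially encoded genes its log2 fold change was 0.25 (adjusted p = 0.0373).

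GYS1, the glycogen synthase of most tissues, was at 24.7, 26.8, 17.1 and 15.7 FPKM in the Controls and 20.9, 16.8, 17.6 and 18.2 FPKM in OGD-R. GBE1, the branching enzyme, was at 9.43, 8.59, 6.49 and 4.25 FPKM in the Controls and 5.53, 5.97, 5.35 and 6.08 FPKM in OGD-R. Both overlapped Controls 3 and 4 and were below Controls 1 and 2, against which they fell by 0.47 (adjusted p = 0.00192) and 0.57 (adjusted p = 0.000362). Against all Controls neither passed the test (adjusted p = 0.576 and 0.454).

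Glycogen phosphorylase, which releases glucose 1-phosphate from glycogen, changed in 1 of its isoforms. PYGB, the brain isoform (chromosome 20, 25248069 to 25298014, plus strand), was at 256, 251, 289 and 246 FPKM in the Controls and 127, 119.7, 114 and 120.4 FPKM in OGD-R. Controls 1 and 2 overlapped Controls 3 and 4, and every OGD-R library was far below them. PYGB fell by 1.11 (SE 0.0839; adjusted p = 0.000142), with log2 fold changes of -1.07 against Controls 1 and 2 and -1.15 against Controls 3 and 4, and its adjusted p was at most 0.00149 with any single library left out. PYGL, the liver isoform, was at 142, 142, 135 and 131 FPKM in the Controls and 146, 145, 142 and 152 FPKM in OGD-R. Its libraries lay just above all Controls, and the log2 fold change of 0.09 (SE 0.0729; adjusted p = 0.422) did not pass the test. PYGB was between 63.9% and 68.2% of both isoforms in Control and between 44.2% and 46.5% in OGD-R, so PYGL was the higher isoform in OGD-R and PYGB in Control.

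**Figure D3:**
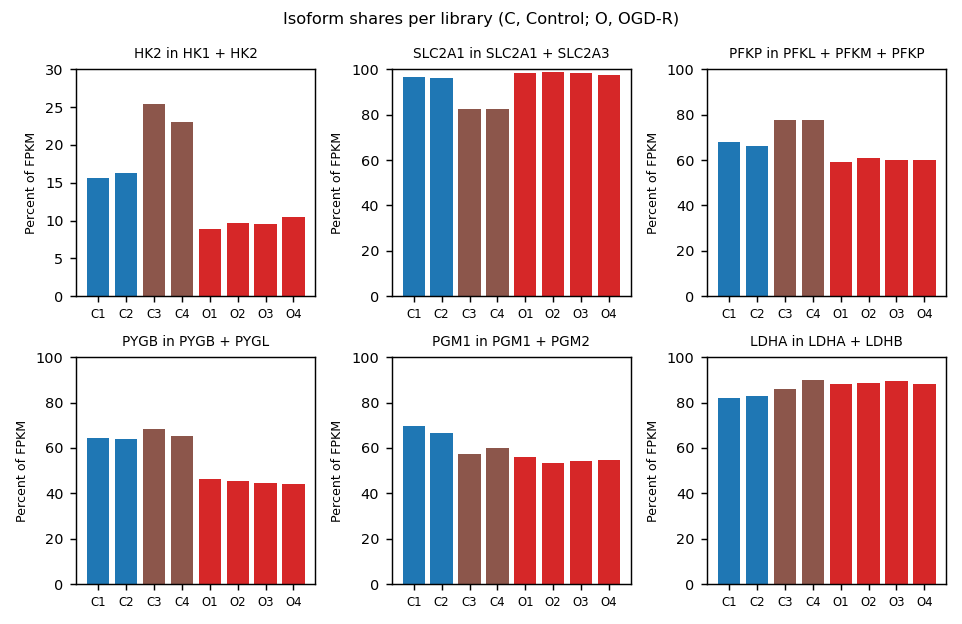
Share of one isoform in the summed FPKM of its family, in percent, with 1 bar per library for 6 families; the HK2 panel ends at 30%. HK2, PFKP, PYGB and PGM1 shares are lower in every OGD-R library than in every Control, the SLC2A1 share is higher, and the LDHA shares overlap.

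In the pentose phosphate pathway, PGLS, which hydrolyses 6-phosphogluconolactone (chromosome 19, 17511629 to 17521288, plus strand), was at 41.2, 39.4, 48.99 and 49.8 FPKM in the Controls and 36.4, 32.4, 32.99 and 30.3 FPKM in OGD-R. Every OGD-R library was below every Control. PGLS fell by 0.43 (SE 0.109; adjusted p = 0.0287), with log2 fold changes of -0.28 against Controls 1 and 2 and -0.57 against Controls 3 and 4. Its call was lost without Control 3, Control 4, OGD-R 2, OGD-R 3 or OGD-R 4 (adjusted p up to 0.0911) and under both rescalings (adjusted p = 0.0513 and 0.0815). PGD, the next enzyme and a source of NADPH, was at 169.9, 159, 98.1 and 95.4 FPKM in the Controls and 103, 105, 98.96 and 101 FPKM in OGD-R. OGD-R lay just above Controls 3 and 4, and PGD fell by 0.68 against Controls 1 and 2 (adjusted p = 1.50e-05) but had a log2 fold change of 0.08 against Controls 3 and 4 (adjusted p = 0.284) and -0.30 against all (adjusted p = 0.323).

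The non-oxidative enzymes, which rearrange sugar phosphates, did not pass the test against all Controls. RPIA, the ribose 5-phosphate isomerase, was at 12.2, 11.4, 7.27 and 6.17 FPKM in the Controls and 9.98, 8.03, 8.95 and 8.40 FPKM in OGD-R. RPE, the ribulose phosphate epimerase, was at 26.8, 33.9, 24.8 and 21.8 FPKM in the Controls and 27.7, 30.8, 25.2 and 29.1 FPKM in OGD-R. RPIA lay between the pairs of Controls, and RPE overlapped Control 1. TKT, transketolase, was at 285, 284, 215 and 202 FPKM in the Controls and 278, 203, 272 and 269 FPKM in OGD-R, where OGD-R 2 stood apart and reached down to Controls 3 and 4. TALDO1, transaldolase, was at 225, 234, 131 and 111 FPKM in the Controls and 189, 169, 179.6 and 176 FPKM in OGD-R, between the pairs. Adjusted p was 0.964 for RPIA, 0.707 for RPE, 0.824 for TKT and 0.806 for TALDO1.

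The counts of members called differed with the Controls kept. Against Controls 1 and 2, 1 member rose and 22 fell, where 22.8% of all genes tested rose and 32.4% fell, and the members' median log2 fold change was -0.37 beside -0.05 over all genes. Against Controls 3 and 4, 20 members rose and 6 fell, where 39.2% of all genes rose and 28.4% fell, and the median was 0.34 beside 0.09. Of the 16 tested glycolysis members, 12 fell against Controls 1 and 2 and 13 rose against Controls 3 and 4. Of 7 glycogen members, 4 fell in the former and 3 rose in the latter, and the 6 pentose phosphate members gave the same counts. Each of these fits rests on a single pair of Controls, so its p-values reflect how far those 2 Controls and the 4 OGD-R libraries scatter. The pairs were taken from these same data, so the counts are a description and not a separate test.

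For 22 of the 31 members tested, the pairs of Controls differed more from each other in mean log2(FPKM + 1) than OGD-R did from either pair, as did 44.8% of all genes tested. Controls 1 and 2 were both above Controls 3 and 4 for 24 of the 31 members tested, against 48.1% of all genes tested. They were both below for SLC2A3, HK1, HK2 and PGLS, 4 members against 34.1% of genes, and the pairs overlapped for PFKP, ALDOC and PYGB. LDHB differed most, by 1.73 on the log2 scale, followed by PGAM1 (1.54), GPI (1.35) and PFKM (1.27), with Controls 1 and 2 higher. SLC2A3 differed by 1.44 and HK2 by 0.86 with Controls 3 and 4 higher. On the way from Controls 3 and 4 to Controls 1 and 2, the OGD-R mean stood at 76.9% for GAPDH, 74.9% for LDHA and 70.5% for PFKM, at 42.7% for LDHB, 35.5% for PKM and 35.2% for ENO1, and at 10% for PGD.

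All 32 members together took 1.98%, 1.99%, 1.25% and 1.15% of the summed FPKM in Controls 1 to 4 and between 1.43% and 1.53% in OGD-R. The OGD-R libraries lay between the pairs of Controls and close to each other. The means were 1.59% ± 0.457 in Control and 1.46% ± 0.0445 in OGD-R (SD, n = 4 each), a difference smaller than the spread of the Controls. Without mitochondrially encoded genes in the sum they were 2.0% ± 0.585 and 2.03% ± 0.0559 (SD, n = 4 each).

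**Figure D4:**
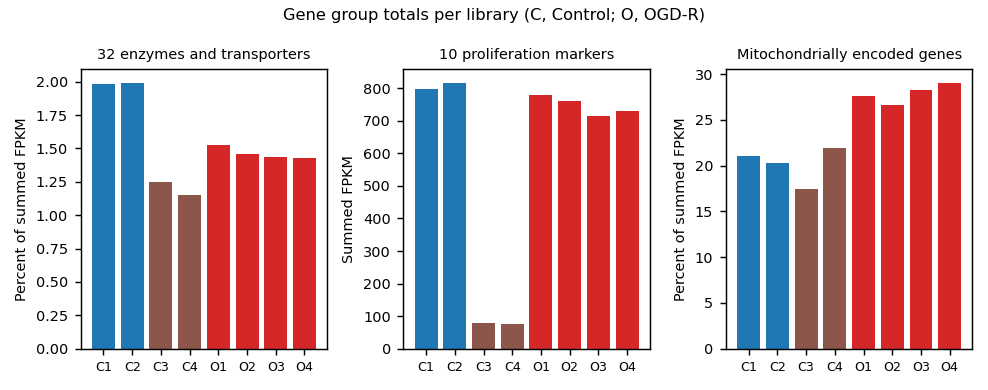
Per library, the share of summed FPKM held by the 32 genes, the summed FPKM of 10 proliferation markers, and the share held by mitochondrially encoded genes, with 1 bar per library. Controls 3 and 4 have the lowest bars in the first panel and bars of 78.1 and 74.9 FPKM in the second, and all OGD-R bars in the third are above all Control bars.

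Other genes of these pathways were read from the same fit, in which 10.2% of all genes tested rose and 9.69% fell; at an unadjusted p under 0.05 these shares were 17.2% and 17%. Of 25 listed glycolysis enzymes and regulators outside the 32, 10 were tested, 1 rose and 2 fell (median log2 fold change -0.14). At an unadjusted p under 0.05 by limma, 2 of these 10 were higher and 4 lower. FBP1, fructose 1,6-bisphosphatase, which runs the phosphofructokinase step backwards in gluconeogenesis, was at 2.77, 3.0, 4.16 and 3.79 FPKM in the Controls and 17.6, 12.5, 16.1 and 12.6 FPKM in OGD-R. The groups did not overlap, and FBP1 rose by 1.82 (SE 0.150; adjusted p = 0.000199), with log2 fold changes of 2.0 against Controls 1 and 2 and 1.65 against Controls 3 and 4. TIGAR, a phosphatase known to lower fructose 2,6-bisphosphate, was at 7.28, 7.69, 7.27 and 7.13 FPKM in the Controls and 5.42, 6.01, 5.33 and 5.72 FPKM in OGD-R and fell by 0.33 (adjusted p = 0.0179). PFKFB2, a kinase and phosphatase that sets the level of the same activator of phosphofructokinase, fell by 0.45 (adjusted p = 0.0401), a call lost under both rescalings (adjusted p = 0.0516 and 0.0862), with no filter on low values (adjusted p = 0.0572) and without any library other than Control 1 (adjusted p up to 0.115). Its relative PFKFB3, known to be induced by hypoxia, was at 17.4, 17.3, 30.8 and 27.6 FPKM in the Controls and 15.4, 14.1, 12.8 and 14.7 FPKM in OGD-R, below all Controls, with adjusted p = 0.0582, and 0.0339 without Control 1 and 0.0321 without Control 2. PFKFB4 overlapped (log2 fold change -0.06, adjusted p = 0.832). TIGAR lost its call without OGD-R 1, OGD-R 3 or OGD-R 4 (adjusted p up to 0.0690).

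Of 18 listed hexose and lactate transporters outside the 32, 9 were tested, 0 rose and 2 fell by limma, beside 10.2% and 9.69% of all genes. At an unadjusted p under 0.05 the counts were 0 and 3, beside 17.2% and 17% of all genes, and the median log2 fold change was -0.08. SLC16A3 (MCT4), a lactate exporter of glycolytic cells, was at 11.1, 12.4, 20.1 and 15.1 FPKM in the Controls and 5.90, 5.95, 4.32 and 4.17 FPKM in OGD-R. The groups did not overlap, and SLC16A3 fell by 1.35 (SE 0.193; adjusted p = 0.00257). SLC16A1 (MCT1), which carries lactate in either direction, was at 65.4, 66.3, 45.2 and 44.5 FPKM in the Controls and 40.2, 39.95, 37.9 and 40.5 FPKM in OGD-R, below all Controls, with adjusted p = 0.0750 against all. It was 0.0419 without Control 4 and 0.026 after rescaling by the median ratio. SLC2A6, a transporter of intracellular membranes, was at 1.63, 1.15, 4.44 and 3.79 FPKM in the Controls and 1.001, 0.634, 0.501 and 0.749 FPKM in OGD-R and fell by 1.03 (adjusted p = 0.0459). Its call was lost under both rescalings (adjusted p = 0.0541 and 0.0565), with no filter on low values (adjusted p = 0.0696) and, with adjusted p up to 0.122, without any library other than Control 1 or Control 2.

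Of 21 listed glycogen turnover genes outside the 32, 15 were tested, 2 rose and 1 fell, beside 10.2% and 9.69% of all genes (median log2 fold change 0.08). At an unadjusted p under 0.05 by limma, 3 of these 15 were higher and 2 lower, beside 17.2% and 17% of all genes. PPP1R3E, a subunit that directs protein phosphatase 1 to glycogen, was at 1.72, 1.54, 1.15 and 1.01 FPKM in the Controls and 3.66, 3.38, 3.26 and 4.24 FPKM in OGD-R and rose by 0.98 (SE 0.128; adjusted p = 0.00158). PHKA2, a subunit of phosphorylase kinase, was between 4.10 and 4.51 FPKM in Control and between 5.15 and 5.65 FPKM in OGD-R and rose by 0.28 (adjusted p = 0.0344). The PHKA2 call was lost without any library other than Control 2 (adjusted p up to 0.110) and with no filter on low values (adjusted p = 0.0566). GSK3A, a kinase that inhibits glycogen synthase, was between 17.6 and 19.99 FPKM in Control and between 12.3 and 14.8 FPKM in OGD-R and fell by 0.42 (adjusted p = 0.0147, lost without OGD-R 3 or OGD-R 4 with adjusted p up to 0.0563). Of 11 listed pentose phosphate genes outside the 32, 8 were tested, 1 rose and 0 fell by limma, beside 10.2% and 9.69% of all genes. At an unadjusted p under 0.05 the counts were 3 and 0, beside 17.2% and 17% of all genes, and the median log2 fold change was 0.17. The gene that rose was SHPK, which phosphorylates sedoheptulose, at 4.71, 3.55, 3.998 and 4.23 FPKM in the Controls and 7.07, 6.51, 7.47 and 7.43 FPKM in OGD-R (log2 fold change 0.67, SE 0.0960, adjusted p = 0.00260).

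**Figure D5:**
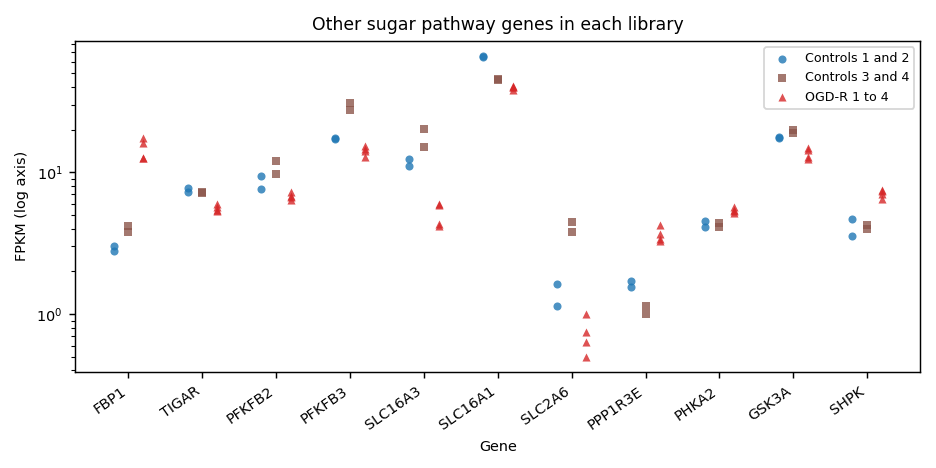
FPKM on a log axis of 11 other sugar pathway genes, with 1 point per library: circles, Controls 1 and 2; squares, Controls 3 and 4; triangles, OGD-R. FBP1, PPP1R3E, PHKA2 and SHPK lie above all Controls in OGD-R, and SLC16A3, SLC2A6, PFKFB2, PFKFB3, TIGAR, SLC16A1 and GSK3A lie below.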

How the data were processed

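RNA was sequenced from 4 Control and 4 OGD-R libraries of HaCaT cells, grouped by title. Per the labels' protocols, total RNA was used, and both a NEBNext and a SMARTer kit are named. Aligner, counting tool, build and annotation: not given in the sources used here. Tables deposited by the authors, 1 for each library, have 24252 rows and name no unit. Low values in single-exon genes repeat at a constant divided by gene length, a spacing that any unit scaled to length would give. The values were taken to be FPKM because, besides this spacing, the library sums differ from each other. This reading was not checked against a stated unit. Summed FPKM lay between 428984 and 475385; reads per library are unknown, so no counting interval is given. The FPKM deposited by the authors are relative to the library total and transcript length, so a larger mitochondrial share lowers all other values. The members and lists were chosen with earlier results of these data known.

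The test was limma 3.58.1 (R 4.3.3, intensity trend) on log2(FPKM + 1), over the 11740 genes averaging 1 FPKM or more across libraries; p-values were adjusted by Benjamini-Hochberg and called at 0.05; this scale understates changes of low genes. Each member was named; of other lists, up to 4 called genes and 5 fixed regulators and transporters. Coordinates come from GENCODE 29 by gene ID. That annotation lists 112 pseudogenes named for 14 members, 62 of them for GAPDH and 13 for PGAM1, none with a row here, so reads of those members are uncertain. Alternatives left out pairs of Controls or single libraries, or changed the block, pseudocount, filter, scaling or trend. How often the fit calls genes wrongly when pairs of Controls lie apart was not tested. Any 2 libraries had at most 1 identical value above 0.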

Additional observations from a re-analysis of the deposited data

Results flagged for a closer look

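Values of each member were examined for a library far from the other 3 of its group, by the gap to its nearest neighbour as a share of the group's range, set against Dixon's critical value for 4 libraries. Of 64 groups examined, 3 passed, and chance flags about 1 in 20. GAPDH was at 1713 FPKM in OGD-R 1 and between 1539 and 1557 FPKM in the other OGD-R libraries. PGAM1 was at 230 FPKM in OGD-R 1 and between 202 and 207 FPKM in the others. TKT was at 203 FPKM in OGD-R 2 and between 269 and 278 FPKM in the others, so that without OGD-R 2 the OGD-R libraries lay above Controls 3 and 4.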

How the results depend on the processing

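HK2, PFKP and PYGB kept direction and call in each alternative run. The pair of Controls kept moved the results most. With Controls 3 and 4 left out, 2673 genes rose and 3807 fell, 22 members fell, the members' median was -0.37 and the difference in their share of summed FPKM was -0.53 percentage points; with Controls 1 and 2 left out, 4603 genes rose and 3337 fell, 20 members rose, the median was 0.34 and the difference 0.26, beside -0.13 with all Controls. Log2 fold changes changed sign without Controls 3 and 4 for GPI (-0.16), PFKL (-0.011), PFKM (-0.37), TPI1 (-0.40), GAPDH (-0.20), PGK1 (-0.36), PGAM1 (-0.58), LDHA (-0.28), PGM2 (-0.041), RPE (-0.10), TKT (-0.16) and TALDO1 (-0.36). They changed sign without Controls 1 and 2 for SLC2A1 (0.22), ALDOA (0.26), ENO1 (0.38), PKM (0.34), LDHB (0.74), PGM1 (0.37), GYS1 (0.15), GBE1 (0.10), PGD (0.076), RPIA (0.35) and PFKFB4 (0.060). Scaling without mitochondrial genes changed the sign of SLC2A1 (0.050) and RPIA (0.053), and 2 members then rose. A minimum of 5 FPKM, which tests fewer genes, left 689 that rose. With one library left out, 711 to 1426 genes rose and 561 to 1312 fell, the lowest counts without an OGD-R library; 0 to 1 members rose (0 without Control 3, Control 4, OGD-R 1, OGD-R 2 or OGD-R 3) and 3 to 5 fell, and log2 fold changes ran from -0.13 to 0.058 for SLC2A1, -0.22 to 0.042 for ALDOA, -0.060 to 0.36 for TPI1, -0.12 to 0.25 for PGK1, -0.11 to 0.45 for PGAM1, -0.38 to 0.032 for ENO1, -0.32 to 0.029 for PKM, -0.48 to 0.17 for LDHB, -0.17 to 0.12 for RPIA, -0.0059 to 0.20 for RPE, -0.029 to 0.17 for TKT, -0.093 to 0.26 for TALDO1 and -0.15 to 0.050 for PFKFB4. The cause of these changes was not tested.

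Labels give both groups the numbers 1 to 4 without saying what a shared number means. Deviations of same-numbered libraries correlated between 0.045 and 0.065, and not every library correlated best with its own number. With the number as a block, 625 genes rose and 507 fell, 0 members rose and 3 fell by limma (1 and 5 at an unadjusted p under 0.05, beside 15.3% and 14.7% of all genes). The block ended 8 calls of named genes: SLC2A3 (adjusted p = 0.0525), ALDOC (0.0765), PGLS (0.104), PFKFB2 (0.106), TIGAR (0.0928), SLC2A6 (0.0889), GSK3A (0.0846) and PHKA2 (0.148).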
